A study of Sus scrofa with 32 samples.

Results

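Loin muscle of a cross with 3 breeds in its pedigree, Duroc x Landrace x Dapulian (DLDPL), was compared with that of the cross with 2, Landrace x Dapulian (LDPL), by RNA sequencing. The comparison took every library that the labels assign to either cross, which gave 8 DLDPL and 8 LDPL libraries, 16 of the 32 in the series. The other 16 libraries came from Landrace (L) and Dapulian (DPL) pigs, 8 of each, and entered the same model, so that all groups share its estimate of spread; their contrasts and means appear below only for comparison. All pigs of both crosses were 6 months old, wild type and kept under similar housing and feeding per the labels, and the muscle was the longissimus dorsi. The labels give no sex, no batch and no direction of the crosses, so the contrast is between crosses as labelled: Duroc ancestry, and the smaller Landrace and Dapulian contributions that come with it, cannot be told apart.

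Duroc, Landrace and Dapulian differ in the traits that loin muscle is judged on. Landrace is a lean white breed, Dapulian is an indigenous Chinese breed known for litter size and meat quality, and Duroc is widely used as the last sire breed of a cross and is known for fat within the muscle. Fat in a loin sample sits in adipocytes between the fibres and in droplets inside the fibres, while the fibres themselves carry the contractile proteins, the glycolytic enzymes and the mitochondria. The series was set up around genes of muscle formation and fat formation across these pigs. The comparison of the crosses asks what differs in muscle RNA once Duroc is added.

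No gene passed the test between DLDPL and LDPL. Among 12821 genes tested, 0 were called by the quasi-likelihood test of edgeR at an adjusted p under 0.05 (0%), and the smallest adjusted p was 0.0927. In the same model, DLDPL differed from L in 2805 genes (21.9%) and from DPL in 526 genes (4.1%), and LDPL differed from L in 3793 genes (29.6%) and from DPL in 366 genes (2.85%). These comparisons share libraries with each other, so their counts are given side by side only. At an unadjusted p under 0.05 there were 969 genes (7.56%) between the crosses, with 542 higher in DLDPL (4.23%) and 427 lower (3.33%). Without any difference, about 5% of genes would be expected at that threshold. The genes share libraries, so the share is no test of an excess. The higher genes made up 55.9% of the 969 in counts, and 75.8% and 75.6% when limma was run on log2(RPKM + 1) and log2(RPKM + 0.1). The RPKM were not scaled by TMM, the scaling of the edgeR counts. The median log2 change over all genes was 0.029 and 0.039 in the limma fits, against 0.004 in edgeR. Both limma fits called 0 genes, with 715 and 734 genes at an unadjusted p under 0.05. DESeq2, run on the same counts, called 33 genes, 26 higher and 7 lower in DLDPL, with 1020 genes at an unadjusted p under 0.05. All 33 were within the 42 smallest p-values of edgeR, where their adjusted p ran from 0.0927 to 0.175.

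For most genes the data left room only for small differences. The median log2 change, DLDPL minus LDPL, was 0.004 and the median absolute change was 0.136, against a median standard error of 0.18. The 95% interval of a typical gene reached 1.289-fold to either side of its estimate. For 10878 genes (84.8%) the whole interval lay within 2-fold, and for 7426 genes (57.9%) within 1.5-fold. With a pair of one-sided tests per gene, adjusted over all genes, a difference of 2-fold or more was rejected for 11258 genes (87.8%) and one of 1.5-fold or more for 7669 genes (59.8%). These shares depended on expression level, given here as CPM, counts scaled to library size. Among the 2059 genes under 1 CPM, 41.6% had intervals within 2-fold and 1.99% within 1.5-fold. Among the 2768 genes from 10 to 30 CPM the shares were 97.3% and 82.3%, and among the 1849 genes from 30 to 100 CPM they were 97.6% and 88.1%.

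**Figure D1:**
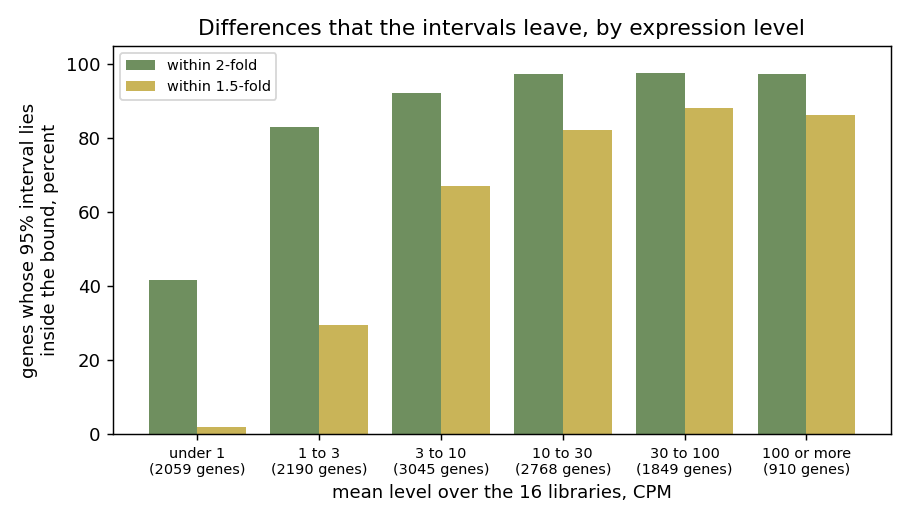
Bars give the share of genes, in percent, whose 95% interval of the DLDPL to LDPL difference lies inside 2-fold (green) or 1.5-fold (yellow), for 6 classes of mean CPM over the 16 libraries, with the number of genes under each class. The share within 2-fold is 41.6% under 1 CPM and 92.4% or more in each class from 3 CPM upwards.

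Well expressed genes whose interval reached 2-fold, through its width or the size of the fitted change, were few. Of 5588 genes at 10 CPM or more, 146 (2.61%) had an interval that reached 2-fold, and 21 had a fitted change of at least 2-fold, 17 higher and 4 lower in DLDPL. Over all genes tested, 151 (1.18%) were fitted at least 2-fold higher and 56 (0.437%) at least 2-fold lower. RETSAT, IGFBP5, FASN, SCD and PLIN1 were among the 17, which also held APOE, COQ10A, THBS2 and genes without a symbol. The 4 lower genes included GALNT15, at -1.27 ± 0.57, and ENSSSCG00000024107, at -1.66 ± 0.49. Of the lists of genes examined, the immediate early genes, transcription factors and other genes that cells induce shortly after a stimulus, had the most members among the 146, with 6. FOS, a transcription factor of that list, was at 48.9 to 805 CPM in DLDPL (median 382) and at 229 to 835 in LDPL (median 553). Its log2 change was -0.44 ± 0.46 (SE), with an interval from -1.38 to 0.50. NR4A3, a nuclear receptor induced by exercise and handling, was at 16.5 to 375 CPM in DLDPL (median 241) and at 65.8 to 301 in LDPL (median 100), with a log2 change of 0.68 ± 0.46. Both genes overlapped between the crosses, and DLDPL replicate 18 was the lowest of the 16 libraries for each.

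**Figure D2:**
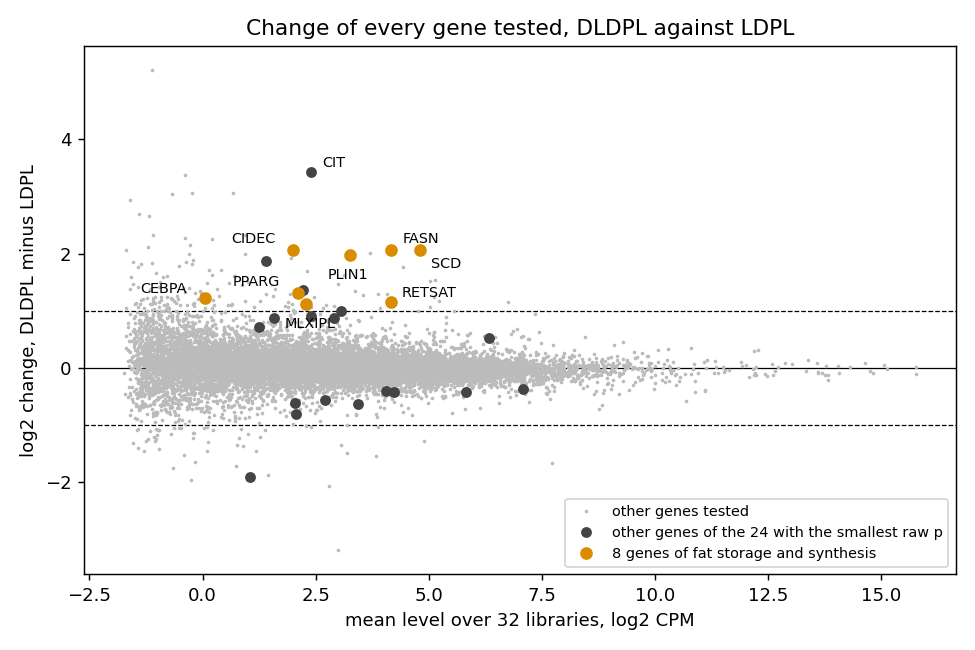
Each point is 1 gene tested, with the mean level over the 32 libraries (log2 CPM) on the x axis and the log2 change, DLDPL minus LDPL, on the y axis; dashed lines mark 2-fold. Orange points are 8 genes, labelled as fat storage and synthesis, that were picked from those higher in DLDPL, at 1.12 to 2.06. RETSAT, among these, belongs to neither the intramuscular adipocyte nor the lipogenesis list. The other members of the intramuscular adipocyte and lipogenesis lists, with log2 changes down to -0.32, are in grey. Dark points are the other genes among the 24 with the smallest unadjusted p, except IGFBP5, which is in grey. CIT stands highest of the dark points at 3.43.

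Several genes of fat cells and fat synthesis had higher means in DLDPL, with fitted log2 changes up to 2.06. The list of intramuscular adipocyte genes had 7 of its 14 members tested, and 4 of the 7 (PLIN1, CIDEC, PPARG and CEBPA) had an unadjusted p under 0.05 with the higher mean in DLDPL, where 4.23% of all genes did. The median log2 change of the 7 was 1.22, beside 0.004 over all genes. None passed with edgeR after adjustment. In bulk muscle, fewer cells of a type and less RNA per cell cannot be told apart, so these values do not separate more adipocytes from more lipid gene RNA in each. ADIPOQ, LEP and FABP4, the usual adipocyte genes, had no matched symbol in these files, and of the 6 defining adipocyte markers only PLIN1 and CIDEC were tested. Their summed level was 5.6 to 61.8 CPM in DLDPL (median 11.6) and 0.749 to 13.5 in LDPL (median 5.47). The part that the number of adipocytes in each sample had in these results was not tested.

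PLIN1 codes for perilipin, the coat protein of the large adipocyte lipid droplet. It was at 3.19 to 43.6 CPM in DLDPL (median 7.10) and at 0.433 to 9.69 in LDPL (median 3.33). DLDPL replicates 27 and 29 were highest, at 43.6 and 43.1, LDPL replicates 5 and 9 were lowest, at 0.433 and 0.816, and the crosses overlapped. The log2 change was 1.97 ± 0.62 (SE; edgeR adjusted p = 0.364). CIDEC, which lets lipid droplets fuse in fat cells, was at 2.41 to 18.7 CPM in DLDPL (median 4.54) and at 0.297 to 3.85 in LDPL (median 2.05). Replicates 29 and 27 were again the highest, and 6 of the 8 DLDPL libraries lay above every LDPL library. Its log2 change was 2.06 ± 0.52 (edgeR adjusted p = 0.17).

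PPARG and CEBPA are the transcription factors that drive adipocyte differentiation. PPARG was at 3.47 to 20.6 CPM in DLDPL (median 4.81) and at 1.67 to 4.5 in LDPL (median 2.62), and 5 of 8 DLDPL libraries lay above all of LDPL. Its log2 change was 1.30 ± 0.34 (edgeR adjusted p = 0.175) and 0.83 without DLDPL replicate 27, and DESeq2 called it at an adjusted p of 0.0428, in a range from 0.0428 to 0.688 over all alternatives. CEBPA was at 0.417 to 4.14 CPM in DLDPL (median 1.0) and at 0.203 to 1.36 in LDPL (median 0.637), with a log2 change of 1.22 ± 0.47, or 0.80 without DLDPL replicate 29. The other 3 members tested, which muscle fibres also express, lay closer to 0. PLIN4, a droplet coat protein, had a log2 change of 0.24 ± 0.19, LIPE, the hormone-sensitive lipase, 0.18 ± 0.34, and GPD1, a cytosolic dehydrogenase linking glycolysis to glycerol, -0.01 ± 0.12. LIPE and GPD1 changed sign when DLDPL replicates 27 and 29 were left out, to -0.06 and 0.10.

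FASN and SCD, the enzymes that make palmitate and desaturate stearate, had the same fitted change and rested on few libraries. FASN was at 6.99 to 199 CPM in DLDPL (median 12) and at 4.92 to 17.9 in LDPL (median 9.86), with DLDPL replicate 29 at 199, replicate 27 at 73.2 and the other DLDPL libraries at 21.5 or less. The log2 change was 2.06 ± 0.53 (edgeR adjusted p = 0.191), and it was 1.0 without replicate 29. SCD was at 8.78 to 448 CPM in DLDPL (median 24.8) and at 4.96 to 49.9 in LDPL (median 15.7). Replicate 29 was at 448, and the other DLDPL libraries, at 37.9 or less, lay within the range of LDPL. The log2 change of SCD was 2.06 ± 0.62 (edgeR adjusted p = 0.326), and it was 0.30 without replicate 29. DESeq2, which replaces outlying counts in groups of this size, gave 0.23.

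MLXIPL and RETSAT depended less on DLDPL replicates 27 and 29 than FASN and SCD did. MLXIPL codes for ChREBP, the glucose-sensing transcription factor upstream of fat synthesis. It was at 4.52 to 15.1 CPM in DLDPL (median 6.72) and at 1.38 to 6.04 in LDPL (median 3.64), and 6 of 8 DLDPL libraries lay above all of LDPL. The log2 change was 1.12 ± 0.27 (edgeR adjusted p = 0.17) and 0.90 without replicates 27 and 29. RETSAT, a retinol saturase that PPARG is known to induce in adipocytes, was at 16.2 to 57.0 CPM in DLDPL (median 19.5) and at 8.05 to 19.2 in LDPL (median 10.3). All 8 DLDPL libraries lay above the LDPL median and 4 above the LDPL maximum, with replicates 29 and 27 highest at 57.0 and 42.2. Its log2 change was 1.15 ± 0.25 (edgeR adjusted p = 0.142) and 0.66 without those replicates. DESeq2 called both genes, MLXIPL at an adjusted p of 0.0265, within 0.0265 to 0.499 over all alternatives, and RETSAT at 0.0107, within 0.0107 to 0.565.

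**Figure D3:**
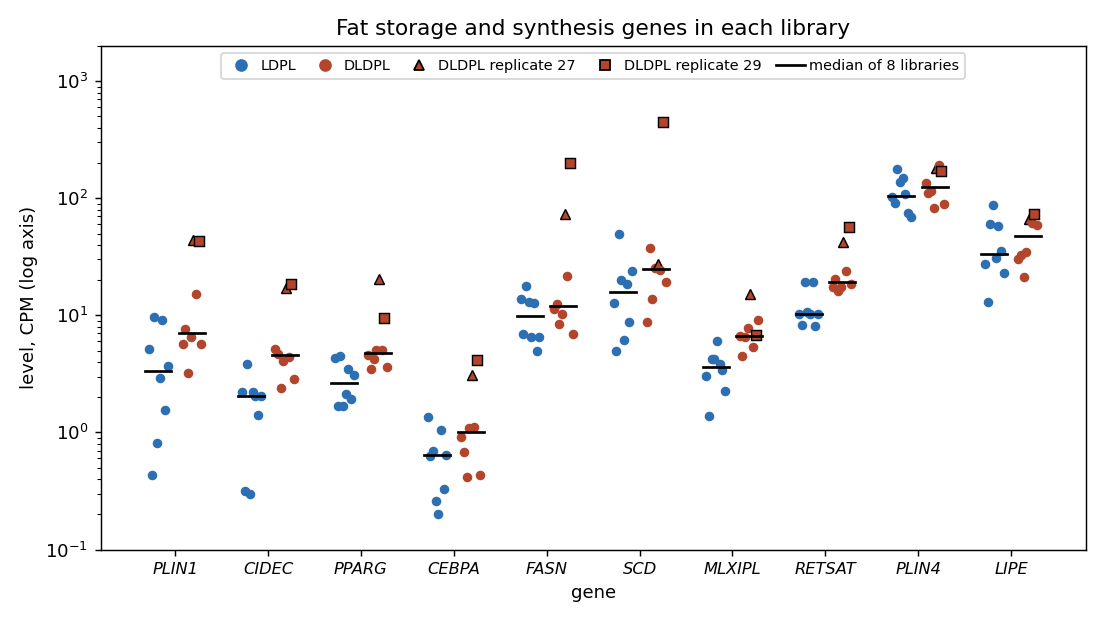
Points give the level of 10 genes in each of the 8 LDPL (blue) and 8 DLDPL (red) libraries in CPM on a log axis, with the median of each cross as a bar and DLDPL replicates 27 and 29 drawn as a triangle and a square. The triangle and the square lie at the top for PLIN1, CIDEC, PPARG, CEBPA, FASN and RETSAT, the square alone for SCD at 448 CPM, and the crosses overlap for all 10 genes.

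Leaving out DLDPL replicates 27 and 29 together, a choice made after seeing the data, lowered the median log2 change of the 7 adipocyte genes from 1.22 to 0.28. CIDEC and PPARG then kept an unadjusted p under 0.05, with log2 changes of 1.14 and 0.60. PLIN1, at 0.81, and CEBPA, at 0.28, did not, with unadjusted p of 0.192 and 0.532 in edgeR. FASN was at 0.21 and SCD at 0.25 without the pair. Over all genes, edgeR then gave 916 genes at an unadjusted p under 0.05 and called 1, GSTO2, which the usual count filter had removed.

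Genes that break down and burn fat gave smaller list medians. Of 6 genes of lipolysis and lipid droplets, 2 had an unadjusted p under 0.05, both higher in DLDPL, where 4.23% of all genes were higher and 3.33% lower at that threshold, and the median log2 change of the list was 0.25. PLIN5, the droplet protein that tethers droplets to mitochondria in oxidative fibres, was at 3.82 to 12.3 CPM in DLDPL (median 7.69) and at 0.867 to 7.24 in LDPL (median 3.85). The log2 change of PLIN5 was 0.81 ± 0.38, and it was 0.87 without replicates 27 and 29. PNPLA2, the first lipase of triglyceride breakdown, had a log2 change of 0.37 ± 0.17. Of 23 genes of fatty acid oxidation, 3 had an unadjusted p under 0.05, all higher in DLDPL, with a list median of 0.08. They were ECI2, an isomerase for unsaturated fatty acids (0.35 ± 0.12), ACAA2, the mitochondrial thiolase (0.36 ± 0.16), and CPT2, the inner carnitine palmitoyltransferase (0.31 ± 0.15). In the list of lipogenesis, 3 of 14 genes were higher and 1 lower at that threshold, with a median of 0.18. Among 8 regulators of adipogenesis, 1 was lower, GATA3 at -0.41 ± 0.20, a factor known to hold back adipocyte differentiation, and the median was -0.03.

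**Figure D4:**
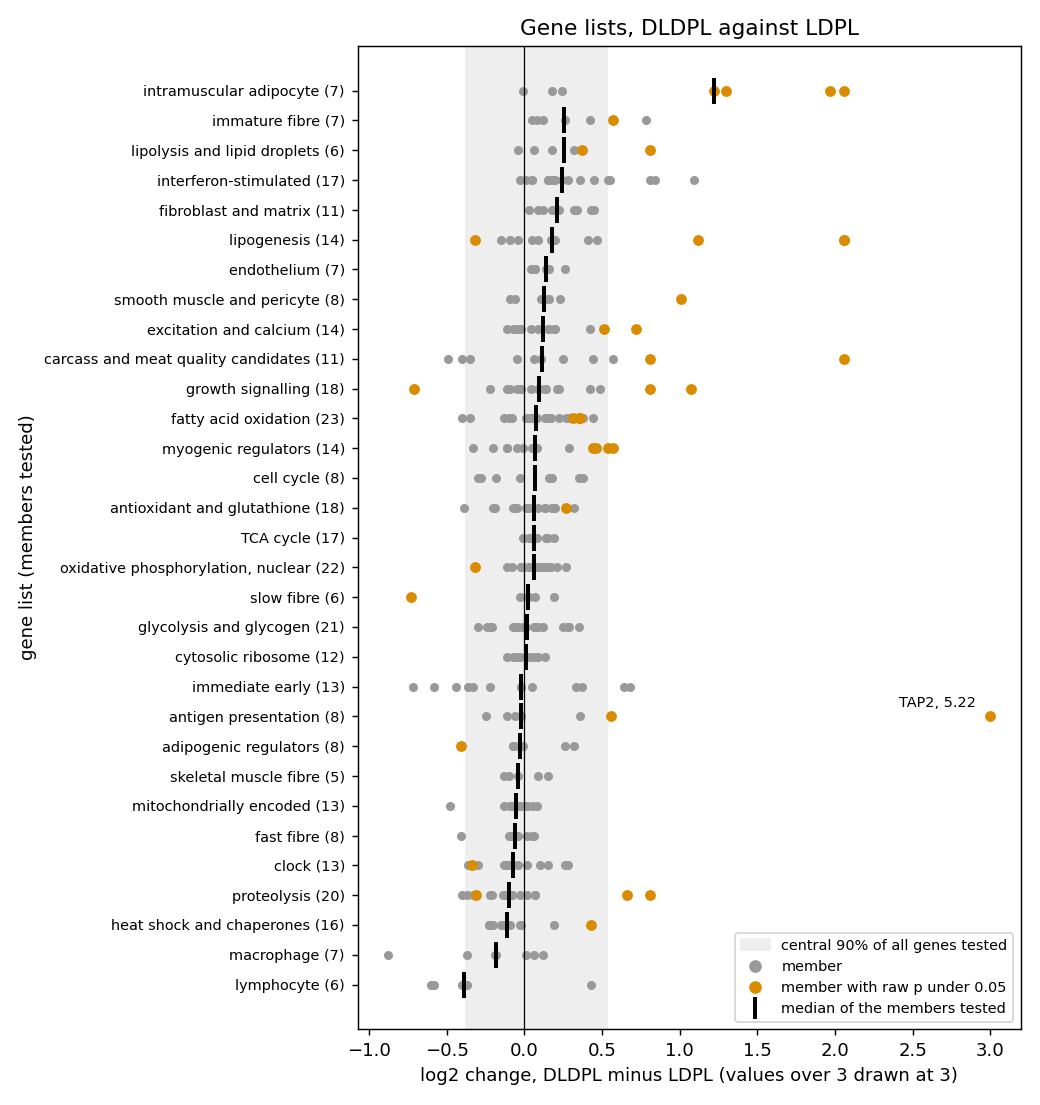
Each row is a gene list with at least 5 members tested (number in brackets), and each point is a member's log2 change, DLDPL minus LDPL, in orange where the unadjusted p was under 0.05; black bars are list medians and the grey band holds the central 90% of all genes tested. The median of the intramuscular adipocyte list lies at 1.22, and those of the other lists drawn lie between -0.39 and 0.26.

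No contractile fibre gene that was tested passed the edgeR test, but 8 of 15 fast and 6 of 13 slow fibre genes were tested. The adult myosin heavy chains MYH1, MYH2, MYH4 and MYH7 were not among the 23 of 39 panel genes tested with a symbol and at least 1 RPKM. Of 8 fast fibre genes, 0 had an unadjusted p under 0.05, 7 had intervals within 1.5-fold, and the median log2 change was -0.06. Among all genes at 100 CPM or more, 86.3% had intervals within 1.5-fold. ATP2A1, the calcium pump of fast fibres, was at 5880 to 9700 CPM in DLDPL (median 7280) and at 5930 to 8820 in LDPL (median 7080), with a log2 change of 0.06 ± 0.14 and an interval from -0.22 to 0.35. Of 6 slow fibre genes, 5 had intervals within 2-fold and 1 within 1.5-fold, with a median of 0.03. TNNC1, the slow troponin C, was at 426 to 1530 CPM in DLDPL (median 844) and at 451 to 1190 in LDPL (median 892), and its interval ran from -0.61 to 0.56. The crosses overlapped for both. CSRP3, a muscle LIM protein of that list, had the 1 unadjusted p under 0.05, at -0.73 ± 0.35. The 7 immature fibre genes all had a fitted change above 0, as did 50.8% of all genes, with a median of 0.26 and 1 member at that threshold, but only 2 of their intervals lay within 2-fold. MYH3, the embryonic myosin heavy chain, had an interval from -1.07 to 1.58. The 5 skeletal fibre markers tested, which check the tissue, all had intervals within 1.5-fold and summed to 46540 to 90310 CPM in DLDPL and 65090 to 93500 in LDPL.

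Regulators of muscle formation and growth gave a few low p-values and no call. Of 14 myogenic regulators, 4 had an unadjusted p under 0.05, all higher in DLDPL, against 4.23% of all genes, and the list median was 0.07. MEF2C, a transcription factor of muscle differentiation, was at 84.1 to 193 CPM in DLDPL (median 144) and at 47.2 to 166 in LDPL (median 87.5), with a log2 change of 0.54 ± 0.18 (edgeR adjusted p = 0.403). VGLL2, a cofactor of TEAD factors, was at 0.46 ± 0.18, SMYD1, a methyltransferase of sarcomere assembly, at 0.44 ± 0.18, and MYMK, the membrane protein myomaker that fuses myoblasts, at 0.57 ± 0.27. MYOD1, the master regulator of the muscle lineage, was at 0.29 ± 0.28 with an interval from -0.28 to 0.87. MSTN, which codes for myostatin, the brake on muscle growth, was at 8.24 to 39.6 CPM in DLDPL (median 14.7) and at 5.08 to 30.6 in LDPL (median 15.5). Its log2 change was -0.05 ± 0.29, with an interval from -0.64 to 0.55, and its sign turned in some alternatives.

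Among 18 genes of growth signalling, 2 were higher and 1 lower at an unadjusted p under 0.05 (4.23% and 3.33% of all genes), with a median log2 change of 0.10. IGFBP5, a binding protein that holds insulin-like growth factors in muscle, was at 21.2 to 98 CPM in DLDPL (median 28.2) and at 7.72 to 25.9 in LDPL (median 17.8). All 8 DLDPL libraries lay above the LDPL median and 5 above the LDPL maximum, with replicate 28 highest. The log2 change of IGFBP5 was 1.07 ± 0.27 (edgeR adjusted p = 0.17) and 0.70 without replicate 28, and DESeq2 called it at an adjusted p of 0.0428, within 0.0428 to 0.403 over all alternatives. IGFBP4, a related binding protein, was at 0.81 ± 0.27. SMAD7, an inhibitor of TGF-beta and myostatin signals, was at 2.87 to 7.31 CPM in DLDPL (median 4.31) and at 3.73 to 10.2 in LDPL (median 8.47), with a log2 change of -0.71 ± 0.26 (edgeR adjusted p = 0.488). The crosses overlapped in each of the 3.

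No gene of energy metabolism passed the edgeR test. Of all genes tested, 84.8% had intervals within 2-fold and 57.9% within 1.5-fold, and from 10 CPM upwards the share within 1.5-fold was 82.3% to 88.1% by class of level. All 17 genes of the TCA cycle had intervals within 1.5-fold, with 0 at an unadjusted p under 0.05 and a median log2 change of 0.06. Of 22 nuclear genes of oxidative phosphorylation, 22 lay within 2-fold and 21 within 1.5-fold. The exception was NDUFB9, a subunit of complex I, at -0.32 ± 0.14, and the list median was 0.06. The 13 mitochondrially encoded genes lay within 2-fold and 11 of them within 1.5-fold, with a median of -0.05. All 21 genes of glycolysis and glycogen lay within 2-fold and 15 within 1.5-fold, with 0 at that threshold and a median of 0.01. LDHA, the lactate dehydrogenase of fast fibres, was at 5020 to 8510 CPM in DLDPL (median 6760) and at 3950 to 7370 in LDPL (median 6690), and its interval ran from -0.28 to 0.41. PRKAG3, the AMP-activated kinase subunit whose variants alter glycogen and meat acidity, had an interval from -0.34 to 0.46, and CAPN3, a muscle calpain, one from -0.18 to 0.32. Of 12 cytosolic ribosome genes, 11 lay within 1.5-fold. PPARGC1A, the coactivator of mitochondrial biogenesis, was less certain: it was at 9.55 to 164 CPM in DLDPL (median 77.2) and at 21.2 to 212 in LDPL (median 36.9), with an interval from -0.61 to 1.49.

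In the lists of protein turnover, calcium handling and defence, the counts below stand against 4.23% of all genes higher and 3.33% lower at an unadjusted p under 0.05, and the members named did not pass the edgeR test. Among 20 genes of proteolysis, 2 were higher and 1 lower at an unadjusted p under 0.05, with a median of -0.10. GABARAPL1, an autophagosome protein, was at 40.5 to 73.8 CPM in DLDPL (median 46.3) and at 17.7 to 51.9 in LDPL (median 34.4), with a log2 change of 0.66 ± 0.18 (edgeR adjusted p = 0.21). CTSL, a lysosomal protease, was at 0.81 ± 0.39 and UBB, a ubiquitin gene, at -0.31 ± 0.14. Of 14 excitation and calcium genes, 2 were higher, CHRNE, the adult acetylcholine receptor subunit, at 0.72 ± 0.27 and ASPH at 0.51 ± 0.19. Of 18 antioxidant and glutathione genes, 1 was higher, MGST3 at 0.27 ± 0.13, and of 13 clock genes 1 was lower, RORA, a nuclear receptor, at -0.34 ± 0.13. Of 16 heat shock genes 1 was higher, HSPB6 at 0.43 ± 0.21, while the list median was -0.11. Of 8 cell cycle genes, 0 had an unadjusted p under 0.05. Of 11 candidates for carcass and meat quality, 2 were higher, SCD and CTSL, and 5 had intervals within 2-fold.

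The values of interferon genes rested on few libraries of each cross. Of 17 interferon-stimulated genes, 0 had an unadjusted p under 0.05, 16 had a fitted change above 0, and the list median was 0.24. MX1, an antiviral GTPase, was at 4.21 to 110 CPM in DLDPL (median 5.24) and at 2.07 to 37.4 in LDPL (median 7.06). RSAD2 and OAS2, antiviral enzymes of the same response, reached 59.8 and 152 CPM in DLDPL. All 3 maxima came from DLDPL replicate 32, and the other DLDPL libraries stayed at or below 8.53, 2.86 and 15.1 CPM. The log2 changes of MX1, RSAD2 and OAS2 were 0.81 ± 0.68, 1.09 ± 0.81 and 0.55 ± 0.62, and without replicate 32 they were -0.97, -1.31 and -1.08, and the list median was -0.37. In LDPL, replicates 9 and 24 had the highest list levels, 1.148 and 0.82 as mean deviations on the log2 scale, and the other LDPL libraries lay at -0.068 or below. Without LDPL replicate 9 the log2 changes of MX1, RSAD2 and OAS2 were 1.47, 1.96 and 1.32. Of 8 antigen presentation genes, 2 were higher and 0 lower at an unadjusted p under 0.05, 3 had a fitted change above 0 and the list median was -0.02. TAP2, a peptide transporter, had 0 to 66 reads in DLDPL (median 7, 7 of 8 libraries with a read) and 0 to 2 reads in LDPL (2 of 8 libraries). In DPL and L, 6 of 8 libraries each had a read of TAP2, with sums of 59 and 98 against 159 in DLDPL and 4 in LDPL. ERAP1, the peptidase that trims the peptides TAP2 carries, had a log2 change of 0.56 ± 0.24. Its means were 10.2 CPM in DLDPL, 6.97 in LDPL, 15.9 in DPL and 16.3 in L. TAP2 had an edgeR adjusted p of 0.152, and DESeq2 called it at 0.0281, within 0.0281 to 0.516 over all alternatives.

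No marker of the other cells in a muscle sample passed the edgeR test. All 11 fibroblast and matrix genes had a fitted change above 0, with a median of 0.21 and 0 at an unadjusted p under 0.05, and the median was 0.01 without DLDPL replicates 27 and 29. COL3A1, a fibrillar collagen, was at 377 to 1180 CPM in DLDPL (median 651) and at 195 to 749 in LDPL (median 531), with an interval from -0.12 to 1.03. The 7 endothelial genes had a median of 0.14 and all lay within 2-fold, and 8 genes of smooth muscle and pericytes had a median of 0.12, with MYH11, the smooth muscle myosin, at 1.01 ± 0.37. The 7 macrophage genes had a median of -0.18, or 0.11 without LDPL replicate 24, and the 6 lymphocyte genes one of -0.39, with 0 of either list at that threshold. The 3 blood genes had a median of 0.60, with HBM, a globin, at 1.24 ± 0.58. Levels of HBM were low, at 0.139 to 3.42 CPM in DLDPL and 0 to 1.07 in LDPL. Without DLDPL replicate 25 the list median was 0.21 and the log2 change of HBM was 0.56. The list median was 0.96 without LDPL replicate 24. The 4 satellite cell genes had a median of 0.26, the 2 nerve and Schwann genes one of 1.23 at levels of 0.0926 to 5.11 CPM summed, and the 3 coat colour genes one of -0.02. Only 1 of 15 sex-linked genes was tested, so the sex of the animals was not analysed here. That gene, DDX3X, had a log2 change of -0.46 ± 0.14 (edgeR unadjusted p = 0.00281, adjusted p = 0.305). Any difference in sex between the animals of the crosses cannot be told apart from the crosses themselves.

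The 24 genes with a symbol, a mean of at least 1 RPKM and the smallest unadjusted p comprised 15 higher and 9 lower in DLDPL. They were chosen by this contrast, so their values are a description. CIT, which codes for citron kinase, an enzyme of cell division, stood first, with levels that split inside each cross. It was at 0.464 to 19.2 CPM in DLDPL (median 9.63) and at 0.169 to 4.16 in LDPL (median 0.379). DLDPL replicate 28 was alone below 5.34, and LDPL replicate 14 was alone above 0.527. The log2 change of CIT was 3.43 ± 0.72 (edgeR adjusted p = 0.133), and edgeR called it at 0.0133 when LDPL replicate 14 was left out, within 0.0096 to 0.485 over all alternatives. The means in L and DPL were 8.37 and 2.67 CPM.

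The other higher genes of the 24 included 2 of acyl-CoA metabolism, ACAA1 and ACOT6. ACAA1, a peroxisomal thiolase, was at 0.87 ± 0.22, with DLDPL replicates 29 and 27 highest, and at 0.44 without them. ACOT6, an acyl-CoA thioesterase with close paralogs that may share its reads, was at 0.71 ± 0.18. MT1X, a metallothionein with near-identical copies and so an uncertain count, was at 1.36 ± 0.32. PPP1R1B, a phosphatase inhibitor, was at 1.25 to 10.7 CPM in DLDPL (median 3.05) and at 0.315 to 2.55 in LDPL (median 1.22), with a log2 change of 1.88 ± 0.46. FBXW8, a ubiquitin ligase subunit, was at 0.87 ± 0.20, TMEM98, a membrane protein, at 0.90 ± 0.23, and SEMA6C, a semaphorin, at 0.53 ± 0.14. The edgeR adjusted p of these 7 genes was 0.17.

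The lower genes of the 24 held the only symbols whose crosses did not overlap. PAAF1, which binds proteasome subunits, was at 3.57 to 6.03 CPM in DLDPL (median 4.93) and at 6.46 to 9.33 in LDPL (median 7.07), with a log2 change of -0.56 ± 0.13 (edgeR adjusted p = 0.152). WIPI1, a protein of early autophagosomes, was at 42.8 to 60.4 CPM in DLDPL (median 49.1) and at 60.6 to 80.1 in LDPL (median 65.8), with a log2 change of -0.42 ± 0.10 (edgeR adjusted p = 0.17). DESeq2 called both, PAAF1 at an adjusted p of 0.0214, within 0.0214 to 0.485 over all alternatives, and WIPI1 at 0.0428, within 0.0428 to 0.586. Over all genes tested, 2 (0.0156%) lay wholly lower in DLDPL and 1 (0.0078%), ENSSSCG00000006331, wholly higher, at 4.11 to 8.65 against 2.80 to 3.97 CPM. The means of WIPI1 in DPL and L were 71.3 and 37.9 CPM, and those of PAAF1 were 7.11 and 6.29. RRS1, EBNA1BP2 and GPATCH4, nucleolar proteins of which the first pair serve ribosome assembly, were at -0.64 ± 0.17, -0.40 ± 0.11 and -0.81 ± 0.21. FRMD8 was at -0.62 ± 0.15, DNAJC1, a chaperone cofactor of the endoplasmic reticulum, at -0.42 ± 0.11, and VAPB, a membrane contact protein, at -0.38 ± 0.10. RHNO1, a protein of the replication checkpoint, was at 0.345 to 2.47 CPM in DLDPL (median 0.764) and at 0.203 to 6.32 in LDPL (median 3.34), with a log2 change of -1.92 ± 0.50. Of the 24 genes, 14 were among the 33 that DESeq2 called.

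No measure of whole libraries differed between the crosses after adjustment. Depth was 24972962 ± 2268551 reads in DLDPL and 24612294 ± 771859 in LDPL (SD, n = 8 each, exact permutation p = 0.705, two-sided). DLDPL libraries listed 14501 to 15177 genes and LDPL libraries 14537 to 14987 (n = 8 each, exact permutation p = 0.19, two-sided). The share of mitochondrially encoded reads was 22.7% ± 4.9 in DLDPL and 22.9% ± 4.4 in LDPL (SD, n = 8 each, exact permutation p = 0.933, two-sided). On the first principal component, which held 14.1% of the variance, the mean was -10.3 ± 23.0 in DLDPL and 10.3 ± 14.7 in LDPL (SD, n = 8 each). The exact permutation p was 0.0544, adjusted to 0.191 over the 6 measures compared. The second, with 11.4%, had means of -8.9 ± 19.7 and 8.9 ± 15.2 (n = 8 each, exact permutation p = 0.0637, adjusted 0.191). DLDPL replicates 27 and 29 had the lowest first scores and LDPL replicate 9 the highest. PLIN1 and CIDEC were among the genes with the lowest loadings on the first component, and MX1, RSAD2 and OAS2 among those with the highest. Without DLDPL replicate 32 the difference in first scores was -26.1 (exact permutation p = 0.00373, adjusted 0.0224), and with the 1000 most variable genes and all 16 libraries it also passed (adjusted 0.0401), so whether it passed turned on that library and on the genes used.

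**Figure D5:**
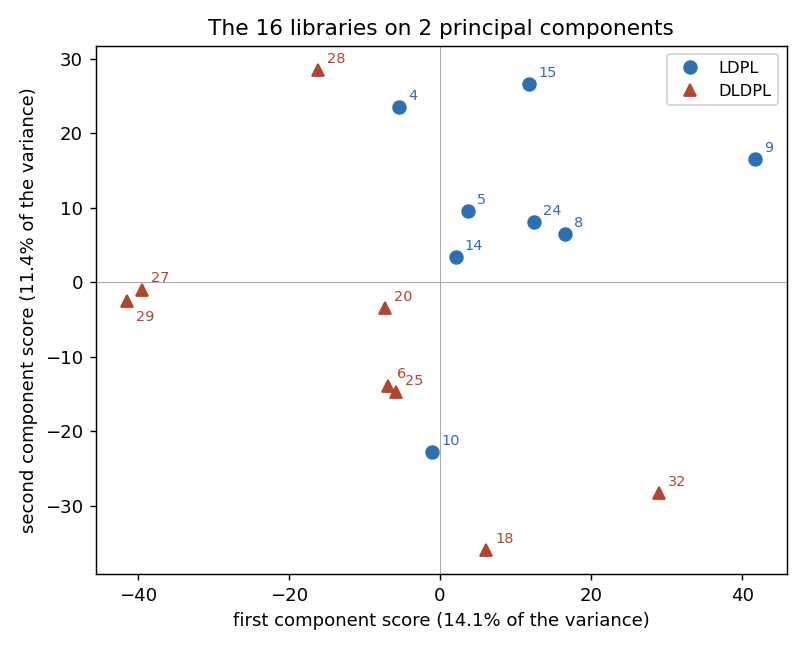
Each point is 1 of the 16 libraries, LDPL as blue circles and DLDPL as red triangles with replicate numbers, on the first (x axis, 14.1% of the variance) and second (y axis, 11.4%) principal component of log2 CPM. The crosses overlap on both axes, DLDPL replicates 27 and 29 lie together at the left, and LDPL replicate 9 lies farthest right at 41.7.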

How the data were processed

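RNA of the longissimus dorsi was sequenced by the authors in 32 libraries; the labels' protocols name 32 pigs, 8 in each group. The authors deposited raw counts, the reads that mapped uniquely to each gene, which added up to the header total in each of 32 libraries; a gene missing from a library was given 0. The deposited RPKM equal those counts scaled to gene length and library total within a relative deviation of 2.2e-14, and the deposited coverage is a percent of gene length. The submitters' processing notes list Bowtie 0.12.2, Cufflinks and mm8, a mouse build, while the files hold pig Ensembl identifiers; no source used here gives the pig build, and coordinates are left out. Of 17930 identifiers, 10836 matched a symbol; those without one held 14.8% of the reads. As a check for duplicate deposits, counts were compared between replicates, and no pair agreed within sampling noise (chi-square per degree of freedom at least 33.7). The strand setting of the counting is not given, so reads of overlapping antisense genes cannot be told apart.

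Genes were filtered by filterByExpr (minimum count 10), scaled by TMM and fitted with the quasi-likelihood model of edgeR 4.0.16 in R 4.3.3, with 4 groups of 8 and Benjamini-Hochberg adjustment over 12821 genes. Unless another tool is named, adjusted p-values are edgeR's, and a gene was called under 0.05. The code was tested on simulated data. Log2 changes are unshrunk, with Wald standard errors and 95% intervals. The text names the 24 genes with a symbol, at least 1 RPKM and the smallest raw p, members of gene lists in order of p, and a panel of muscle genes; others were chosen after their values were seen. Of the 24, 1 is not reported here. The gene lists, their members and the comparison were chosen with earlier results of these data known. Library measures were compared by two-sided exact permutation over 12870 splits. Alternatives used DESeq2 1.42.0, limma 3.58.1 on log2 RPKM, sva 3.50.0, other filters and scalings, and each library left out.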

Additional observations from a re-analysis of the deposited data

Results flagged for a closer look

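In each cross, the highest or lowest of the 8 libraries was set against the gap to its nearest neighbour, as a share of the range of the cross. Of 236 such groups of values, 24 (10.2%) had a gap above Dixon's 95% critical value. Chance gives about 5% (1 in 20) for independent values that were not selected. Here some genes were chosen after their values were seen and many share libraries, so the share is no test of an excess. The gaps are given as values.

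In DLDPL, replicate 29 was far above the others for SCD, at 448 CPM against 37.9 or less. Replicate 32 was far above for MX1 at 110 CPM, RSAD2 at 59.8 and OAS2 at 152, and for the level of the interferon-stimulated list, at 2.346 (mean deviation on the log2 scale) against 0.033 or less. The same library was low for the lists of endothelium, at -0.533, and lymphocytes, at -0.782. Replicate 18 was low for the immediate early list, at -2.294, the heat shock list, at -1.134, and the fatty acid oxidation list, at -0.248. Replicate 28 was low for CIT at 0.464 CPM, ERAP1 at 5.07 and MGST3 at 28.6. Replicate 20 was high for MSTN, at 39.6 CPM against 15.8 or less, and for ENSSSCG00000006331, at 8.65.

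In LDPL, replicate 5 was low for PLIN5 at 0.867 CPM, IGFBP5 at 7.72 and TNNC1 at 451. Replicate 14 was high for CIT, at 4.16 CPM against 0.527 or less, and low for RRS1 at 10.2. Replicate 10 was high for the myogenic regulator list, at 0.19, and low on the second component, at -22.8. Replicate 4 was high for the immediate early list, at 0.825, and replicate 9 on the first component, at 41.7.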

How the results depend on the processing

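The count of 0 genes called by edgeR was also 0 with only the 16 libraries, RLE scaling, a minimum of 10 CPM in 8 libraries, without mitochondrially encoded genes, with their share as a covariate, with a robust prior, against 1.2-fold, and in both limma fits. It was 33 with DESeq2, 2 without a filter on low counts or at an adjusted p under 0.10, and 1 with 2 surrogate variables (FHDC1) or without DLDPL replicates 27 and 29 (GSTO2). Leaving out each library gave 0 to 3 calls: 3 without LDPL replicate 4 or DLDPL replicate 6, and 1 without LDPL replicate 5, LDPL replicate 14 (CIT) or DLDPL replicate 20. The causes were not tested. The count of 10878 genes with intervals within 2-fold was 5852 of 6053 under the 10 CPM minimum, which tests fewer genes, and 9700 with 99% intervals. With the 1000 most variable genes the difference on the first component was -19.08 (exact permutation p = 0.00668, adjusted 0.0401), and over libraries left out it was -26.11 to -16.01. Over the same omissions the difference in depth was -254433 to 724486 reads, in coverage -0.01 to 0.50 percentage points and in mitochondrial share -1.22 to 0.94. Small changes turned sign. Without DLDPL replicates 27 and 29 the log2 change was -0.06 for LIPE, 0.10 for GPD1 and 0.14 for MSTN. With 2 surrogate variables it was 0.13 for GPD1, 0.09 for MSTN, -0.14 for PRKAG3 and -0.16 for COL3A1. With limma it was 0.02 and 0.02 for GPD1 and 0.04 and 0.05 for MSTN, and with the 10 CPM minimum 0.01 for GPD1 and 0.00 for TNNC1. Over libraries left out it was -0.05 to 0.05 for GPD1, -0.01 to 0.12 for LDHA, -0.37 to 0.13 for MSTN, -0.04 to 0.14 for PRKAG3, -0.18 to 0.08 for TNNC1, -0.97 to 1.47 for MX1, -1.08 to 1.32 for OAS2 and -1.31 to 1.96 for RSAD2. No paired analysis was possible because the 2 crosses share no replicate numbers. The median standard error was 0.39 on the log2 scale for genes under 1 CPM and 0.18 over all genes; the part of depth in this was not tested.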

Other observations

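Genes close to absent in 1 cross lay outside the groups above and were singled out after their values were seen. GSTO2, an omega class glutathione transferase, had 0 reads in all 8 DLDPL libraries and 2 to 62 in the 8 LDPL libraries, with a median of 23.5 and a sum of 196. Its sums were 3 reads in DPL and 7 in L. The filter on low counts removed it, and without the filter edgeR gave it an adjusted p of 0.00028 (0.00351 where DLDPL replicates 27 and 29 were left out with the filter kept). ENSSSCG00000021404, which has no symbol here, had 0 reads in all DLDPL and all L libraries, 0 to 12 in LDPL (median 7) and 4 to 34 in DPL, and it had the smallest p of all genes tested (edgeR adjusted p = 0.0927). DESeq2 called it at an adjusted p of 9.11e-05, and edgeR called it at 0.0204 without the filter and at 0.0101 without LDPL replicate 5. A count of 0 allows up to 3 reads in a library, for counting error only. ENSSSCG00000002825 was at 0.321 to 5.93 CPM in DLDPL (median 1.63) and at 0.111 to 0.551 in LDPL (median 0.184), with a log2 change of 3.06 ± 0.60 (edgeR adjusted p = 0.0927). DESeq2 called it at 0.000802 and edgeR at 0.0468 without LDPL replicate 4, and over all alternatives the adjusted p reached 0.454. FHDC1, a formin, was at -0.87 ± 0.38 and reached -1.95 with 2 surrogate variables, where its edgeR adjusted p was 0.0432, within 0.0432 to 0.893 over all alternatives. Its level was low, at 0.173 to 1.61 CPM in DLDPL (median 0.593) and at 0.519 to 3.53 in LDPL (median 1.12). DDX3X, an RNA helicase on the X chromosome, was the 1 sex-linked gene tested. It was at 482 to 724 CPM in DLDPL (median 545) and at 601 to 1100 in LDPL (median 830). Its log2 change was -0.46 ± 0.14 (edgeR adjusted p = 0.305), and the labels give no sex.

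CIT and FBXW8 of the 24 genes lie near each other in the pig RefSeq annotation, which may differ from the one behind the files. From TCTN1 to FBXW8 it holds 28 protein-coding genes, of which 19 were tested. At an unadjusted p under 0.05, 4 were higher in DLDPL (4.23% of all genes were) and 0 lower: TCTN1 at 0.45 ± 0.13, CIT, SUDS3 at 0.35 ± 0.10 and FBXW8. The median log2 change of the 19 was 0.09, and 14 were above 0. The stretch was chosen after its values were seen, so these counts are a description.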
